A study of Mus musculus with 48 samples.

Results

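The 42 genes described here encode the ligands, receptors, secreted antagonists, Smad proteins, regulators and target genes of TGF-β and BMP signaling. They were chosen by name as members of the pathway, with earlier results of these data known, and they are 42 of the 47480 gene symbols counted in each of the 2 tables of the series. By role they are 8 ligands, 9 receptors, 3 secreted antagonists, 2 latency proteins, 4 receptor-regulated Smads, the common mediator Smad4, 10 negative regulators and 5 target genes. RNA was sequenced from 48 libraries of C2C12, a mouse myoblast line that fuses into myotubes when serum is withdrawn. The libraries form 12 groups of 4, with 24 libraries of undifferentiated myoblasts and 24 of differentiated cells, which the labels call myotubes. In each stage, cells on collagen-coated flexible plates underwent cyclic equibiaxial stretching, with separate groups at 1 h, at 3 h and at 6 h, and each time had its own non-stretched group on the same kind of plate. No group carried a transgene, a deletion or a drug, and all libraries come from 1 cell line.

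TGF-β, activin and BMP ligands bind paired type I and type II receptor kinases, and the type I receptor phosphorylates Smad2 and Smad3 (mostly for TGF-β and activin) or Smad1 and Smad5 (mostly for BMP). Phosphorylated Smads join Smad4, enter the nucleus and act on genes that include the pathway's own inhibitors, such as Smad6, Smad7 and Pmepa1, and the Id genes, whose proteins hold back the MyoD family of muscle factors. In muscle, TGF-β, myostatin and BMP signals are known for restraining the differentiation of myoblasts, and BMP can turn C2C12 cells toward the osteoblast lineage. Phosphorylation was not measured here, so every value is an RNA level.

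Depth ran from 48447318 to 77080730 counts per library, and levels are given as CPM, the counts of a gene scaled to a common library size with TMM factors. The 6 differentiated-muscle markers measured (Myog, Ckm, Myh3, Tnnt1, Mef2c and Acta1) summed to 6.98 to 16.1 CPM in the myoblast libraries and to 9410 to 11536 CPM in the differentiated ones. The 3 myoblast markers (Myod1, Myf5 and Des) did not fall as a set. They summed to 891 to 1097 CPM in myoblast and 2913 to 3414 CPM in differentiated libraries. Only Myf5 had a lower mean in differentiated cells (22.2 against 48.0 CPM). Markers of osteoblasts, adipocytes, endothelial and immune cells were near 0, with at most 33 counts for Sp7 and at most 18 for any other. Fos, Fosb and Cyr61, genes known to respond to mechanical force, rose at 1 h in both stages (Fos by 2.16 on the log2 scale in myoblasts and 2.76 in differentiated cells, adjusted p = 1.51e-06 and 0.0302). Egr1, listed for the same check, ran from 69.8 to 303 CPM over the myoblast and from 124 to 948 CPM over the differentiated libraries. Its test result is not given here. One stretched library at 1 h in differentiated cells, replicate 4, carries a code in its title that no other library carries (B17), and it stood apart. Among the 40 pathway genes tested there, it was above the other 7 libraries for 18 and below them for 4. The same was not counted over all genes, so whether replicate 4 stands apart more for this pathway is not known. The other titles carry B27 or B31 in myoblasts and B25 or B28 in differentiated cells, 2 libraries of each code in a group, except that stretched differentiated cells at 1 h have 1 of B28. The title of 1 stretched myoblast library at 1 h (replicate 9) reads B231, and it was counted under B31 as its column is named. For the members given in full, all 70 log2 differences within a code had the sign of the fit, and they are printed for the 10 pairs of codes furthest apart and for Smad7 at 1 h. These members were picked by their test on the same libraries, so the shared sign is no separate check. What the codes mean is not given in the labels. Libraries are listed in order of their replicate numbers (7, 8, 9 and 10, or 4, 7, 8 and 9 for stretched differentiated cells at 1 h) and named by them.

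For the sequence context, the 250 bases before the annotated start are shown for Bmp4, Tgfb2, Smad6 and Tgfbi (RefSeq promoter table, GRCm38.p6, 30 of the 42 genes matched). They were picked from the members whose RNA changed and whose window could be read. Others of these, such as Grem1, Inhbb and Tgif2, are not shown. Bmp4 and Tgfb2 are ligands that moved, Smad6 the inhibitory Smad that fell, and Tgfbi a target gene whose window ends at the gene's start after 187 bases. Capitals mark CAGAC, the core of the Smad binding element, and GGCGCC, a BMP Smad site, on either strand (GTCTG is CAGAC read on the other strand). Each is written 5′ to 3′ on the gene's strand.
Bmp4, chr14:46390670-46390919, minus strand: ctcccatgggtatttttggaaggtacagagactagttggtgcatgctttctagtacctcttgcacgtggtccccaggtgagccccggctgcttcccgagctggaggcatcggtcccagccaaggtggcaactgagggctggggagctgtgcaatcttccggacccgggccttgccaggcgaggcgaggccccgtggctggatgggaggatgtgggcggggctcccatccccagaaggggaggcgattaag
Tgfb2, chr1:186705990-186706239, minus strand: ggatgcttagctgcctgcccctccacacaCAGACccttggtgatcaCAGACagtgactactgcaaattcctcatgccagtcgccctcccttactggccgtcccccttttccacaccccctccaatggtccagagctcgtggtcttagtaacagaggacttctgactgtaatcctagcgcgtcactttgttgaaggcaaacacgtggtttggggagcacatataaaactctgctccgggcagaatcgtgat
Smad6, chr9:64022060-64022309, minus strand: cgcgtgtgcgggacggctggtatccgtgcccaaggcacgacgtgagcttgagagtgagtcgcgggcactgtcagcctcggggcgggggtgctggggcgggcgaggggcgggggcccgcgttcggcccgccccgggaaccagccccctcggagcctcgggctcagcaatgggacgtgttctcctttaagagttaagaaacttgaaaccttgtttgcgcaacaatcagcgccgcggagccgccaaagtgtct
Tgfbi, chr13:56609336-56609522, plus strand: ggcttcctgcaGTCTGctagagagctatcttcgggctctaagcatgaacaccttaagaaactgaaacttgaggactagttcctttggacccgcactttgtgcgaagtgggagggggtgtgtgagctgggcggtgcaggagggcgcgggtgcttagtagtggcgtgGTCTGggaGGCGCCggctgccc
Neither motif was found in the Bmp4 or Smad6 windows. The Tgfb2 window held CAGAC at 2 places, and the Tgfbi window held CAGAC at 2 places and GGCGCC at 1. Over the members' 38 windows (some genes have more than 1), 18 held CAGAC (47.4%, against 42.2% of all 32851 windows) and 10 held GGCGCC (26.3%, against 9.59%). The AP-1 site by name and the CArG box by name were in none of the 38 (4.46% and 1.47% of all windows), and TGACG was in 7 (18.4%, against 17.8%). These shares describe letters in a window and say nothing of binding. Bmp4 itself lies at chr14:46383520-46390669 on the minus strand, Tgfbi at chr13:56609523-56639562 and Id3 at chr4:136143497-136145755, both on the plus strand, in mm10. Counts were per gene, so no exon or isoform is told apart.

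Over the 12 non-stretched libraries of each stage, 19 of the 42 genes were higher in every differentiated library than in every myoblast library, 9 were lower, and 14 overlapped. No such count was made over all genes, so these numbers do not set the members apart from other genes. The 2 tables were normalized separately, so this is a description with no test. Title code, medium and plating density also differed between the stages and cannot be told apart from stage. Grem1, a secreted BMP antagonist, was the most abundant member per length of transcript in both stages, at 167 ± 5.91 CPM per kb in myoblasts and 139.8 ± 22.1 in differentiated cells (SD, n = 12 each). In myoblasts the next were Id3 (62.9 ± 6.59), Id1 (49.0 ± 6.00) and the latency protein Ltbp1 (33.7 ± 1.22). In differentiated cells they were the ligand Tgfb3 (101 ± 4.36) and the TGF-β inhibitor Pmepa1 (97.6 ± 4.34), which lay within their spread of each other. The members with the highest ratio of the mean CPM, differentiated to myoblast, among those with more than a few counts were Fst (15.0-fold), Tgfb3 (6.87-fold), Pmepa1 (6.78-fold), Bmp4 (6.50-fold) and Inhbb (6.44-fold). The lowest ratios were those of Id3 (0.131), Id2 (0.298), Id1 (0.308), Ltbp1 (0.382) and Smad7 (0.576). Mstn, which encodes myostatin, was near the floor, with 0 to 3 counts in the myoblast and 0 to 11 in the differentiated libraries.

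**Figure D1:**
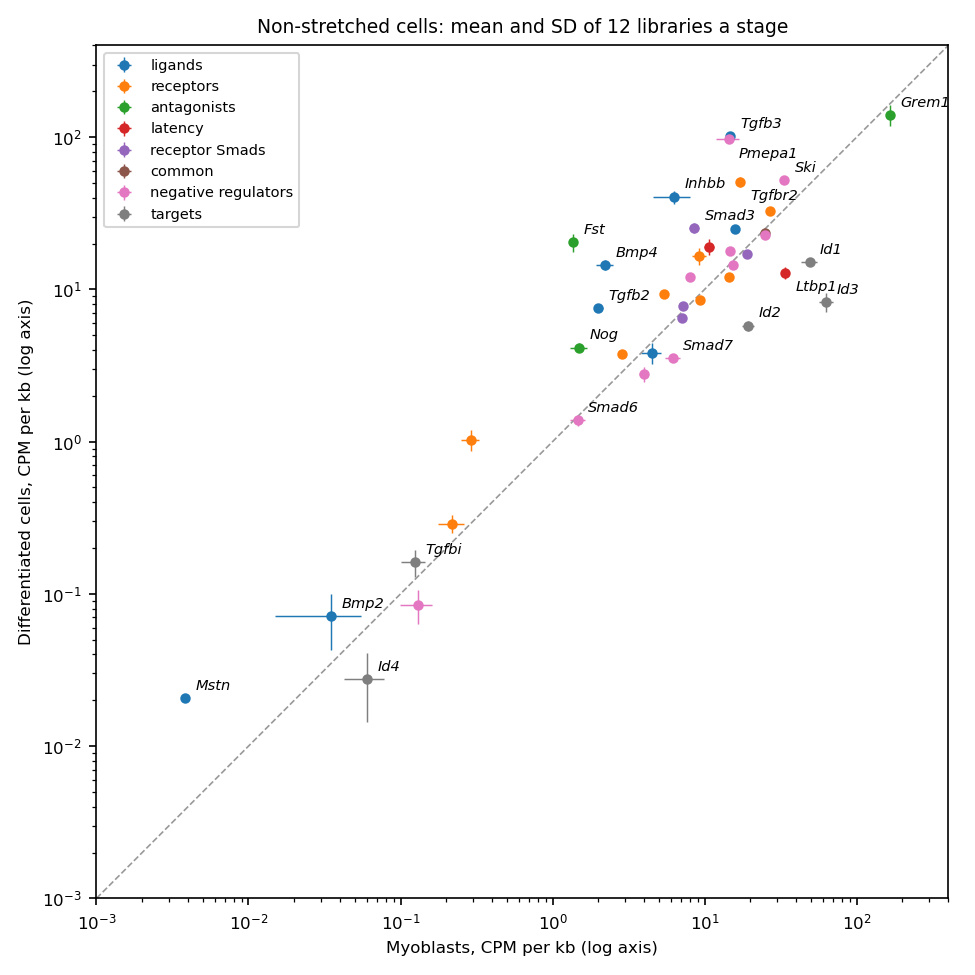
Mean level per kb of exon of each member in non-stretched myoblasts (x axis) and non-stretched differentiated cells (y axis), both in CPM per kb on log axes, with the SD of 12 libraries a stage. Mstn is drawn without error bars. Fst, Tgfb3, Pmepa1, Bmp4 and Inhbb lie above the diagonal, the Id genes and Ltbp1 below it, and Grem1 at the top of both axes.

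Stretching changed many members by small amounts. A gene passed the test at a Benjamini-Hochberg adjusted p under 0.05 over all genes tested (edgeR quasi-likelihood test, 4 stretched against 4 non-stretched libraries), and passed both limits if its log2 fold change was also at least 0.58 in size. In each of the 6 comparisons of stretched with non-stretched cells 40 of the 42 members had enough counts to be tested. Mstn was tested in none, Bmp2 (2 to 15 counts) not in myoblasts, and Id4 (2 to 16 counts) not in differentiated cells. By the study's methods, the 4 libraries of a myoblast group were separate samples from 2 independent experiments and those of a differentiated group came from 3, while the titles show 3 codes only in stretched differentiated cells at 1 h. Libraries of 1 experiment share its conditions, and p-values treat the 4 libraries of a group as independent.

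In myoblasts at 1 h, 5 of the 40 members rose (background 1.67% of 14938 genes) and 1 fell (4.24%), and none passed both limits (1.25% of genes, 0.254% higher and 0.997% lower). With no filter on low counts the 5 higher members were 2, and Acvr1, Smad1 and Smad3 did not pass. At 3 h, 19 rose (16% of 14813 genes) and 3 fell (15.8%), and none passed both limits (1.71%, 0.459% higher and 1.25% lower). At 6 h, 11 rose (14.1% of 14938 genes), 4 fell (13%), and 1, Bmp4, fell past both limits (0.823%, with 1.35% higher and 2.17% in either direction). The share of members that passed in either direction was 15.0% at 1 h, 55.0% at 3 h and 37.5% at 6 h, against 5.92%, 31.9% and 27.2% of all genes. The members' median log2 fold change was 0.048, 0.10 and 0.025 at the 3 times, beside 0.0024, -0.0074 and 3.5e-05 over all genes.

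In differentiated cells at 1 h, 2 members rose (0.193% of 15538 genes), none fell (0.47%), and 1, Smad7, rose past both limits (0.0901%, with 0.18% lower and 0.27% in either direction). At 3 h, 14 rose (10.8% of 15513 genes), 4 fell (11.4%), and none passed both limits (1.63%, 0.89% higher and 0.741% lower). At 6 h the balance was the other way, with 3 higher (11.5% of 15433 genes) and 15 lower (10.8%), and 2, Id3 and Tgfbi, fell past both limits (1.52%, with 0.518% higher and 2.04% in either direction). The share that passed was 5.0%, 45.0% and 45.0% at the 3 times, against 0.663%, 22.2% and 22.3% of all genes. The median log2 fold change of the members was 0.081, 0.063 and -0.10, beside -0.00017, -0.0013 and -0.00012 over all genes. With all 24 libraries in one model, the 15 lower members at 6 h were 9, and Tgfb2, Tgfbr3, Ltbp1, Skil, Id1 and Id2 did not pass. At 1 h without replicate 4 the median was 0.056, and 2 members rose and 1 fell. With replicate 4 the 2 higher members at 1 h were 4 with DESeq2 and 6 with all 24 libraries in one model. No member passed both limits in more than 1 comparison.

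**Figure D2:**
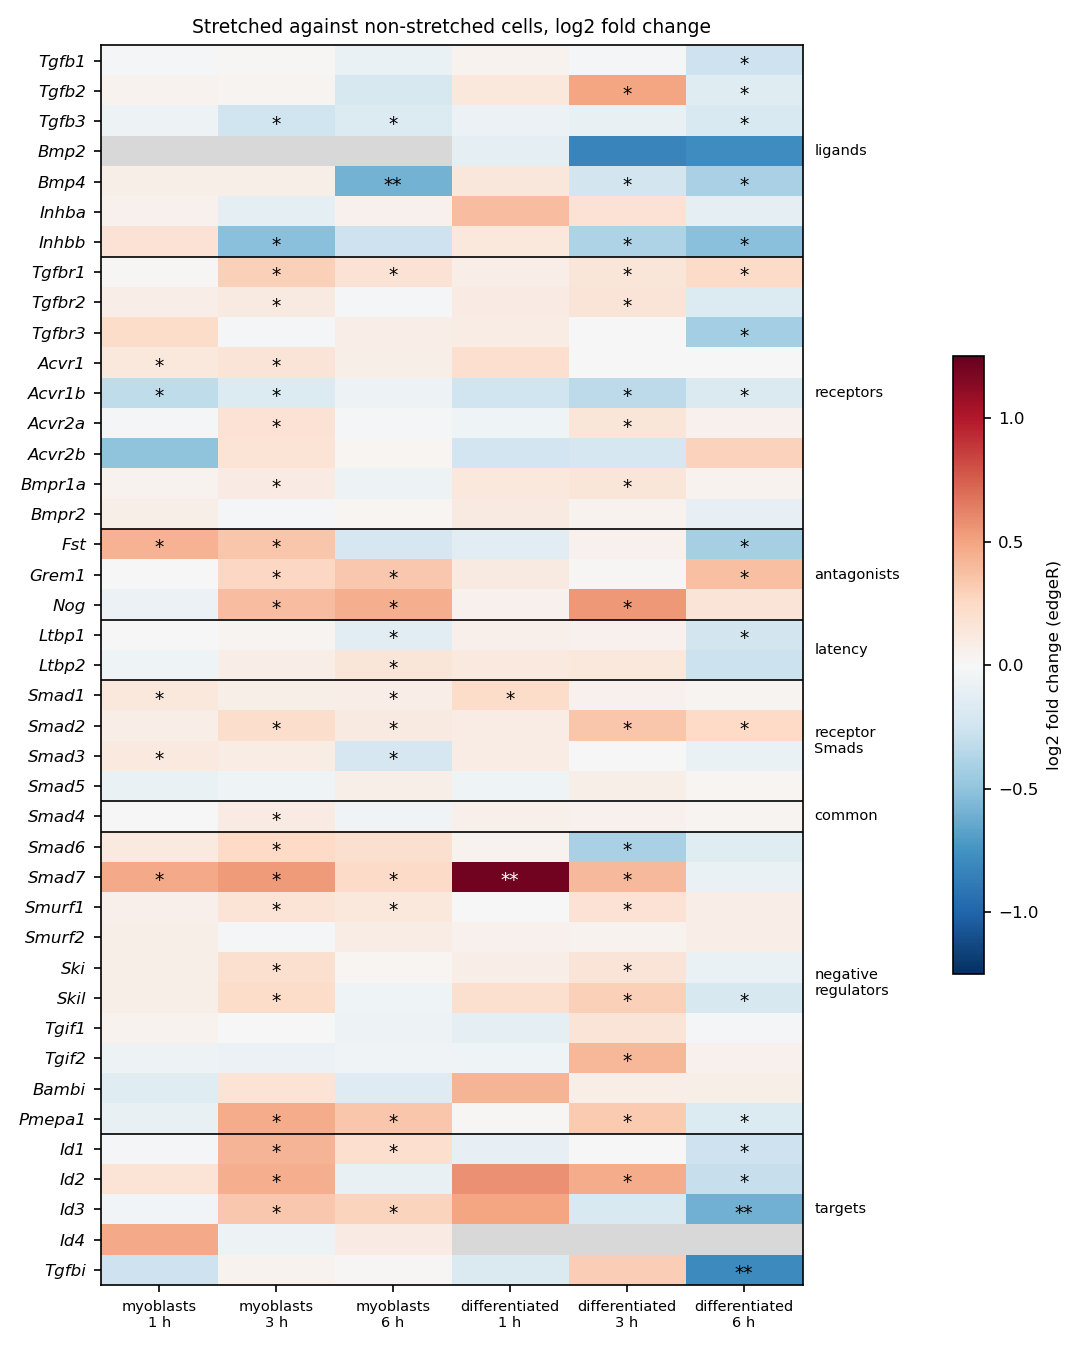
Log2 fold change of stretched against non-stretched cells for each member, ordered by role, in the 6 comparisons (colour scale, red for higher and blue for lower in stretched cells), with 1 star for members that passed the test, a second star for those past both limits, grey for those not tested, and Mstn left out. The differentiated 6 h column holds 15 lower and 3 higher members that passed, and the myoblast 3 h column 19 higher and 3 lower.

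Among the ligands no member rose in myoblasts, and in differentiated cells 1 of 7 tested rose at 3 h (Tgfb2, beside 10.8% of all genes higher) while 5 of 7 fell at 6 h (beside 10.8% of all genes lower). Bmp4, a BMP ligand, was lower in stretched cells at 6 h in both stages. In myoblasts at 6 h its level was 4.85, 4.69, 5.19 and 6.10 CPM in the non-stretched and 2.82, 3.53, 3.37 and 4.11 CPM in the stretched libraries. The groups did not overlap, and Bmp4 fell past both limits (log2 fold change -0.59, SE 0.12, 0.665-fold, adjusted p = 0.00424). The adjusted p stayed under 0.05 with any 1 library left out, but the log2 change was under the 0.58 limit without non-stretched replicate 10 (-0.51) or stretched replicate 7 (-0.50) or 9 (-0.578). At 1 h and 3 h its log2 fold change did not pass (0.071, adjusted p = 0.784, and 0.069, adjusted p = 0.648). For differentiated cells at 6 h, Bmp4 measured 32.9, 34.8, 34.7 and 37.8 CPM in non-stretched and 26.4, 28.4, 23.9 and 26.99 CPM in stretched cells. Again no library of one group reached the other (log2 fold change -0.41, SE 0.058, 0.754-fold, adjusted p = 0.00147), and at 3 h Bmp4 had fallen by a smaller amount (-0.23, adjusted p = 0.00409).

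Inhbb encodes a subunit of activin B. Non-stretched differentiated libraries at 6 h measured 193, 192, 155 and 163 CPM and the stretched ones 115, 118, 129 and 129 CPM. All stretched values were lower (log2 fold change -0.52, SE 0.073, 0.698-fold, adjusted p = 0.00139), with a log2 difference of -0.73 within code B25 and -0.30 within B28. It also fell at 3 h (-0.39, adjusted p = 0.00713). In myoblasts at 3 h the values were 34.0, 33.9, 20.2 and 21.5 CPM without and 17.3, 18.0, 21.0 and 19.8 CPM with stretching. There the groups overlapped, and the fall (log2 fold change -0.52, SE 0.15, 0.696-fold, adjusted p = 0.0161) was -0.94 within code B27 and -0.031 within B31. It did not pass without non-stretched library 8 (adjusted p 0.0572), or with all 24 myoblast libraries in one model (adjusted p = 0.121).

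Tgfb2, a TGF-β isoform, rose in differentiated cells at 3 h. Its level was 45.9, 41.3, 44.8 and 45.7 CPM in non-stretched and 62.4, 53.1, 68.5 and 66.1 CPM in stretched libraries. Every stretched library was above every non-stretched one (log2 fold change 0.49, SE 0.070, 1.41-fold, adjusted p = 0.00106). By 6 h it was lower than in non-stretched cells (-0.15, adjusted p = 0.0493), a call lost without non-stretched library 7, 8 or 9 or stretched library 7 or 8 (adjusted p 0.0892 to 0.122). In myoblasts at 3 h it measured 0.034, adjusted p = 0.699. Tgfb3 fell in myoblasts at 3 h and 6 h (-0.24 and -0.17 on the log2 scale) and in differentiated cells at 6 h (-0.19), and Tgfb1 fell in differentiated cells at 6 h (-0.26, adjusted p = 0.0014). Inhba, the activin A subunit, passed in none of the 6 comparisons. Bmp2, at 6 to 30 counts a library in differentiated cells, measured -0.82, adjusted p = 0.0942 at 3 h and -0.77, adjusted p = 0.163 at 6 h on the log2 scale, so it did not pass.

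**Figure D3:**
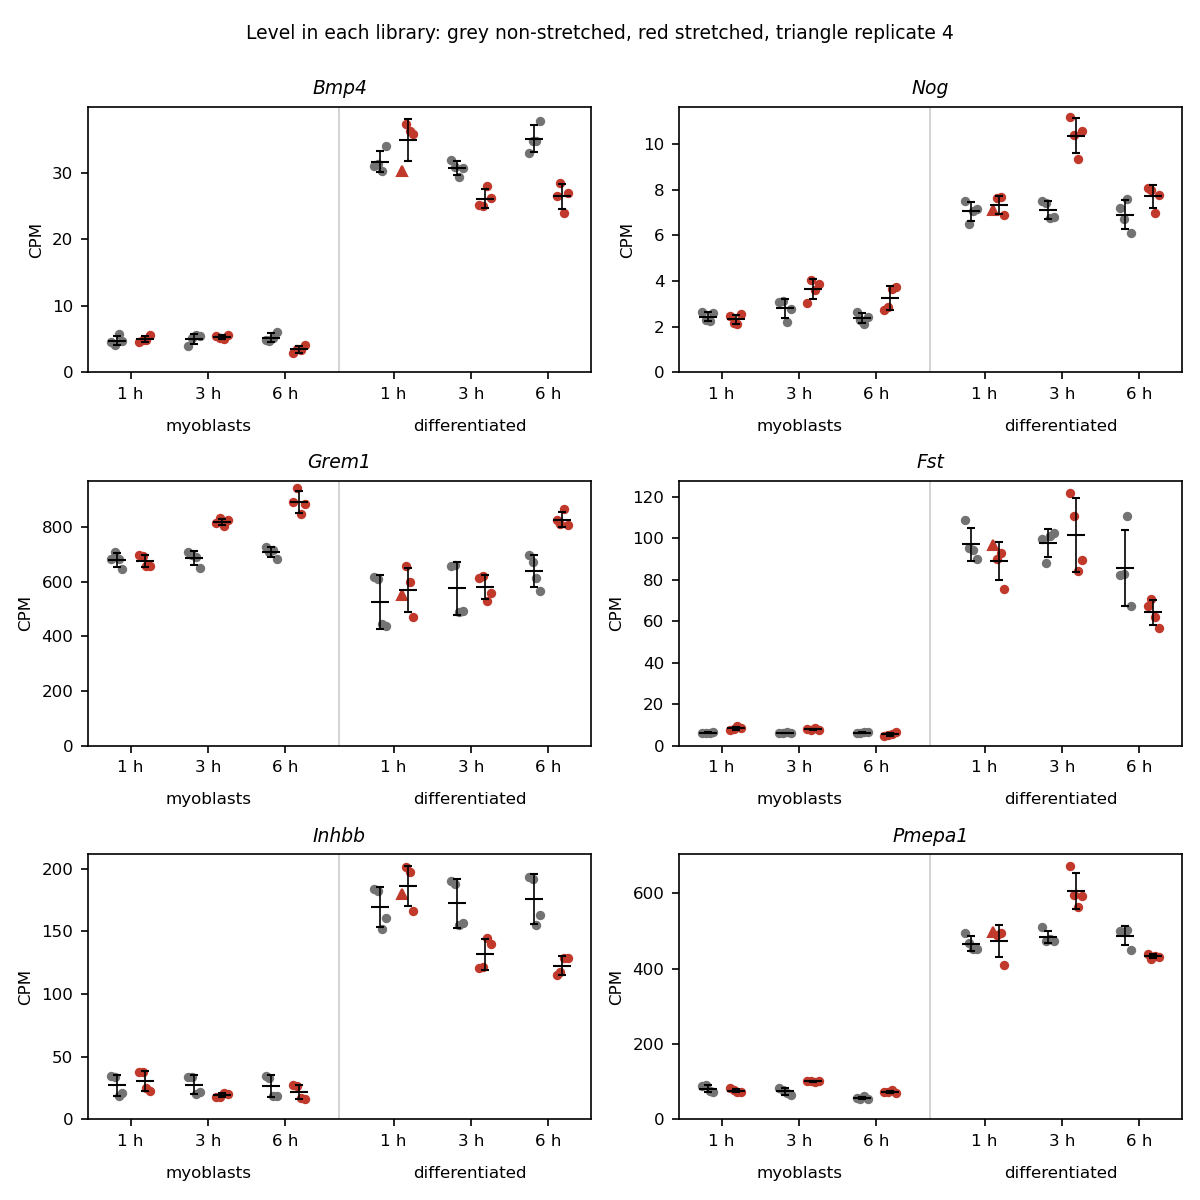
CPM of each library for Bmp4, Inhbb, Nog, Grem1, Fst and Pmepa1, in non-stretched (grey) and stretched (red) cells at 1, 3 and 6 h (x axis, myoblasts left of the grey line and differentiated cells right of it). Points are libraries (a triangle for replicate 4), and bars the mean and SD of 4. Bmp4 is lower in stretched cells at 6 h in both stages, and Grem1 higher.

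The 9 receptors changed little, the largest change that passed being a log2 fold change of -0.43. Tgfbr1, the type I TGF-β receptor, rose in 4 comparisons by 0.15 to 0.30 (3 h and 6 h in both stages). Acvr1b, a type I activin receptor, fell in 4, which were 1 h and 3 h in myoblasts and 3 h and 6 h in differentiated cells. In myoblasts at 1 h it measured 11.95, 12.5, 12.2 and 13.3 CPM without and 10.8, 10.2, 9.50 and 9.49 CPM with stretching. Those groups did not overlap (log2 fold change -0.32, SE 0.058, 0.801-fold, adjusted p = 0.00725). The change in differentiated cells at 3 h was a fall as well (-0.33, adjusted p = 0.0043), and the one at 6 h was lost without non-stretched library 10 or stretched library 7, 8 or 10 (adjusted p 0.0513 to 0.0616). Acvr1, a type I receptor for BMP and activin, rose in myoblasts at 1 h from 69.3 ± 1.78 to 75.9 ± 1.85 CPM (SD, n = 4). The log2 fold change was 0.13 (edgeR adjusted p = 0.0329), a call lost without non-stretched library 7 or 8 or stretched library 7, 8, 9 or 10 (adjusted p 0.0578 to 0.104). At 3 h in myoblasts Acvr1 was also higher (0.16, adjusted p = 0.00285), without overlap of the groups. That call was kept with any 1 library left out.

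Tgfbr3, the co-receptor betaglycan, measured 7.90, 8.56, 5.74 and 6.92 CPM in non-stretched and 6.02, 5.72, 5.26 and 4.67 CPM in stretched differentiated cells at 6 h. One non-stretched library lay among the stretched ones (log2 fold change -0.43, SE 0.12, 0.745-fold, adjusted p = 0.0312). The call was lost without non-stretched library 7, 8 or 10 or stretched library 9 or 10 (adjusted p 0.0509 to 0.0896). Of the other receptors, Tgfbr2 and Acvr2a, both type II, and Bmpr1a rose at 3 h in both stages, by 0.099 to 0.18 in myoblasts and 0.15 to 0.16 in differentiated cells. The Tgfbr2 call in differentiated cells was lost without non-stretched library 9 or 10 or stretched library 7, 8, 9 or 10 (adjusted p 0.0697 to 0.135), and with all 24 libraries in one model (adjusted p = 0.131). Acvr2b and Bmpr2 passed in none of the 6 comparisons. Acvr2b had only 34 to 73 counts in the myoblast libraries. In myoblasts at 1 h it measured -0.51 on the log2 scale (SE 0.15, adjusted p = 0.0714), and the groups did not overlap.

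All 3 secreted antagonists rose in myoblasts at 3 h, when 16% of all genes did. Grem1 was higher at 6 h in both stages. In myoblasts at 6 h it measured 727, 710.1, 714 and 682 CPM without and 891, 944, 848 and 885 CPM with stretching. Every stretched library was higher (log2 fold change 0.34, SE 0.035, 1.26-fold, adjusted p = 0.000118). The differentiated values at 6 h were 698, 672, 613 and 567 CPM and 824, 809.6, 865 and 808 CPM. No values overlapped there either (log2 fold change 0.37, SE 0.060, 1.30-fold, adjusted p = 0.00234), and the log2 difference was 0.25 within code B25 and 0.50 within B28.

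Nog encodes noggin, which binds BMPs outside the cell. Its level in differentiated cells at 3 h was 7.51, 7.43, 6.78 and 6.79 CPM in non-stretched and 11.2, 10.4, 9.33 and 10.6 CPM in stretched libraries. The groups were apart (log2 fold change 0.54, SE 0.067, 1.46-fold, adjusted p = 0.000524). In myoblasts at 6 h it rose from 2.66, 2.28, 2.12 and 2.43 CPM to 2.74, 2.86, 3.66 and 3.72 CPM. These groups were apart by a small margin (log2 fold change 0.45, SE 0.12, 1.37-fold, adjusted p = 0.0193), the log2 difference was 0.18 within code B27 and 0.70 within B31, and the call was lost without non-stretched library 8 or 9 or stretched library 9 (adjusted p 0.0516 to 0.0599). At 3 h in myoblasts the values were 3.10, 3.13, 2.21 and 2.76 CPM without and 3.06, 4.05, 3.58 and 3.88 CPM with stretching, which overlapped (log2 fold change 0.38, SE 0.12, 1.30-fold, adjusted p = 0.0287), with a log2 difference of 0.19 within code B27 and 0.59 within B31. That call was lost without non-stretched library 9 or 10 or stretched library 8, 9 or 10 (adjusted p 0.0564 to 0.0872).

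Fst encodes follistatin, which binds activins and myostatin. In myoblasts at 1 h the non-stretched libraries had 6.20, 6.27, 6.02 and 6.38 CPM and the stretched ones 7.73, 8.08, 9.29 and 8.48 CPM. All stretched values were above (log2 fold change 0.44, SE 0.066, 1.35-fold, adjusted p = 0.00259), and Fst was also higher at 3 h (0.34, adjusted p = 0.000568). The values in differentiated cells at 6 h ran 82.3, 82.6, 110.5 and 67.1 CPM without and 67.4, 70.6, 62.0 and 56.9 CPM with stretching. One non-stretched library was the highest of the 8 by a wide gap and another lay among the stretched ones (log2 fold change -0.42, SE 0.13, 0.749-fold, adjusted p = 0.0385), with a log2 difference of -0.26 within code B25 and -0.58 within B28. The call was lost without non-stretched library 7 or 8 or stretched library 7, 9 or 10 (adjusted p 0.0643 to 0.0942). Of the latency proteins, which hold TGF-β in the matrix, Ltbp1 fell at 6 h in both stages (-0.13 and -0.23 on the log2 scale), and Ltbp2 rose in myoblasts at 6 h (0.15). The Ltbp1 call was lost in myoblasts without non-stretched library 7 or 8 or stretched library 8 or 9 (adjusted p 0.0543 to 0.0912), and in differentiated cells without non-stretched library 7 or 8 or stretched library 7, 8 or 10 (adjusted p 0.087 to 0.132).

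Of the Smads that carry the signal, Smad2, a TGF-β and activin Smad, rose at 3 h and 6 h in both stages, by 0.22 and 0.11 on the log2 scale in myoblasts and 0.34 and 0.25 in differentiated cells. Smad1, a BMP Smad, rose at 1 h in differentiated cells from 47.3, 48.7, 47.3 and 50.3 CPM to 59.1, 56.4, 56.2 and 55.2 CPM, of which the first stretched value is replicate 4. The groups did not overlap (log2 fold change 0.23, SE 0.039, 1.17-fold, adjusted p = 0.0365), and the call was lost without non-stretched library 7, 8, 9 or 10 or stretched library 7 or 8 (adjusted p 0.0726 to 0.167). In myoblasts at 1 h Smad1 rose from 45.0 ± 1.15 to 49.2 ± 0.811 CPM and Smad3 from 47.8 ± 0.537 to 51.9 ± 1.12 CPM (SD, n = 4; edgeR adjusted p = 0.0256 and 0.0316). Smad1 was lost without non-stretched library 7 or 10 or stretched library 7, 8, 9 or 10 (adjusted p 0.0534 to 0.0928), and Smad3 without non-stretched library 7, 8 or 10 or stretched library 8, 9 or 10 (adjusted p 0.0556 to 0.112). Smad3 was lower at 6 h in myoblasts (-0.21, adjusted p = 0.00358). Smad5 passed in none of the 6 comparisons, and Smad4 in 1, myoblasts at 3 h (0.10).

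Smad7, which blocks type I receptors and is itself induced by the pathway, was higher in stretched cells in 5 of the 6 comparisons. In myoblasts at 1 h it measured 33.6, 33.0, 27.9 and 29.6 CPM without and 41.7, 43.6, 45.2 and 41.3 CPM with stretching. The stretched libraries were all higher (log2 fold change 0.47, SE 0.059, 1.39-fold, adjusted p = 0.00074). At 3 h they were 28.6, 29.1, 24.8 and 26.4 CPM and 39.3, 42.7, 37.5 and 37.0 CPM, apart again (log2 fold change 0.53, SE 0.055, 1.44-fold, adjusted p = 1.87e-05). At 6 h, with 27.5, 24.5, 25.01 and 23.9 CPM and 30.6, 30.0, 32.2 and 26.5 CPM, the groups overlapped by 1 library (log2 fold change 0.24, SE 0.060, 1.18-fold, adjusted p = 0.0122).

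In differentiated cells at 1 h Smad7 was 15.4, 14.0, 15.0 and 15.4 CPM in non-stretched libraries and 51.8, 28.1, 29.9 and 28.7 CPM in stretched ones. All stretched libraries lay above the non-stretched ones, and the first of them, replicate 4, lay far above the other stretched libraries. Smad7 rose past both limits (log2 fold change 1.21, SE 0.18, 2.31-fold, adjusted p = 0.0252). Without replicate 4 the log2 fold change was 0.95 ± 0.049 (SE, adjusted p = 2.30e-05), and within codes it was 0.98 (B25) and 0.92 (B28). The call was lost when replicate 4 stayed and another was left out, namely non-stretched library 7, 8, 9 or 10 or stretched library 8 (adjusted p 0.0619 to 0.112). At 3 h the values were 16.6, 16.7, 16.4 and 17.5 CPM and 21.0, 19.4, 23.3 and 25.1 CPM, without overlap (log2 fold change 0.40, SE 0.071, 1.32-fold, adjusted p = 0.00296). At 6 h the change was -0.083, adjusted p = 0.214, which did not pass.

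**Figure D4:**
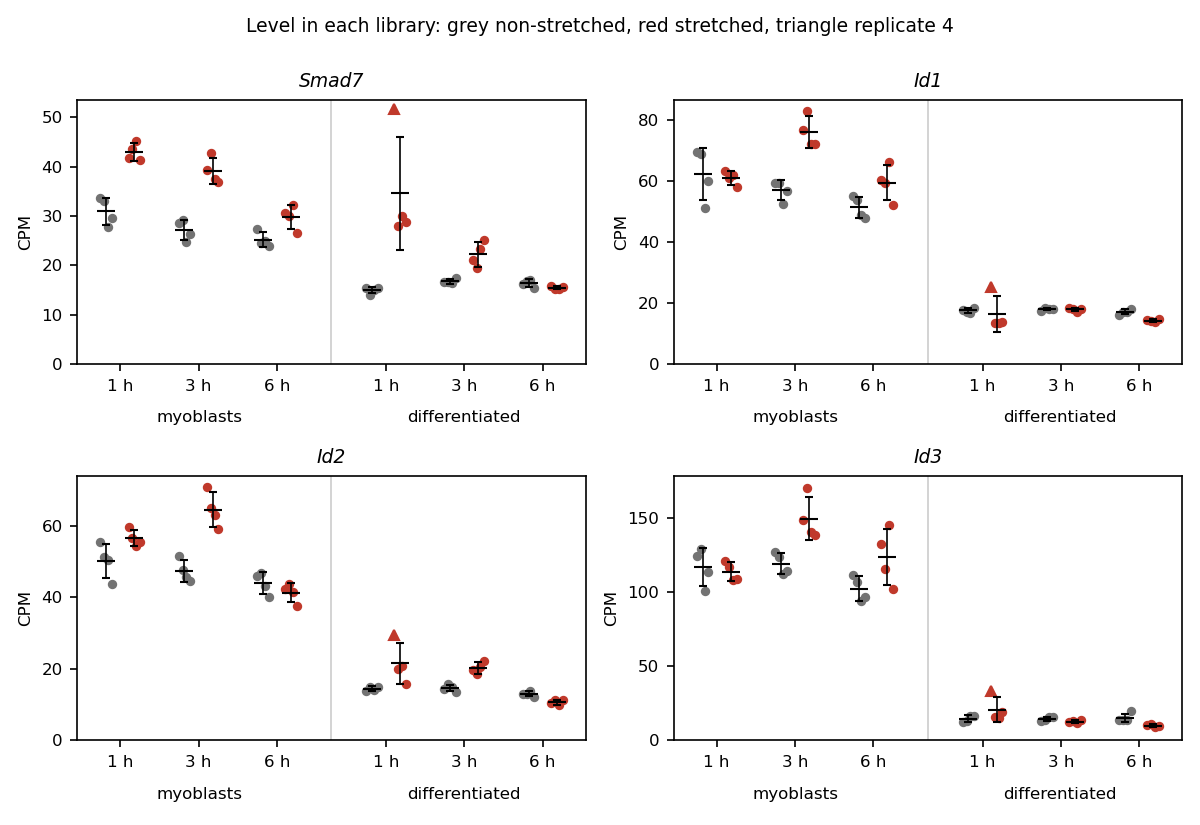
CPM of each library for Smad7, Id1, Id2 and Id3 in non-stretched (grey) and stretched (red) cells at 1, 3 and 6 h (x axis, myoblasts left of the grey line and differentiated cells right of it). Points are libraries (a triangle for replicate 4), and bars the mean and SD of 4. The highest Smad7 point in differentiated cells at 1 h is replicate 4, at 51.8 CPM, and Id3 lies lower in differentiated cells than in myoblasts throughout.

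Smad6, the inhibitory Smad that acts mainly on BMP signaling, moved in opposite directions in the stages at 3 h. In differentiated cells it was 4.78, 4.82, 4.29 and 4.38 CPM without and 3.15, 3.21, 3.64 and 3.77 CPM with stretching. No values overlapped (log2 fold change -0.41, SE 0.083, 0.755-fold, adjusted p = 0.00645), with -0.59 within code B25 and -0.23 within B28. In myoblasts at 3 h it rose (0.25, adjusted p = 0.0342), a call lost without non-stretched library 9 or 10 or stretched library 7 or 8 (adjusted p 0.0768 to 0.101) and with all 24 libraries in one model (adjusted p = 0.18).

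Pmepa1, a membrane protein that sequesters Smad2 and Smad3, rose in myoblasts at 3 h from 84.0, 76.5, 70.3 and 64.3 CPM to 102, 102, 99.5 and 101 CPM. The stretched libraries were all above the non-stretched ones (log2 fold change 0.46, SE 0.059, 1.37-fold, adjusted p = 8.56e-05). At 6 h in myoblasts the values were 57.7, 55.0, 61.1 and 54.2 CPM and 71.4, 71.3, 77.7 and 69.8 CPM, also apart (log2 fold change 0.35, SE 0.045, 1.27-fold, adjusted p = 0.000375). In differentiated cells it rose at 3 h (0.33, adjusted p = 0.00175) and fell at 6 h (-0.17, adjusted p = 0.0119).

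Tgif2, a corepressor of Smad targets, rose in differentiated cells at 3 h from 10.1, 9.85, 13.1 and 11.998 CPM to 16.04, 13.9, 14.9 and 15.1 CPM. The groups did not overlap (log2 fold change 0.41, SE 0.088, 1.33-fold, adjusted p = 0.0079), with a log2 difference of 0.58 within code B25 and 0.26 within B28. Other genes, mainly Tgif2-ps2, hold 20.9% of its stretches of 31 bases, so its counts depend in part on how shared reads were divided. Ski and Skil, both corepressors, rose at 3 h in both stages by 0.16 to 0.30, and Skil fell at 6 h in differentiated cells (-0.20, adjusted p = 0.00583). Smurf1, a ubiquitin ligase for receptors and Smads, rose at 3 h in both stages and at 6 h in myoblasts, by 0.13 to 0.18. Smurf2, Tgif1 and the decoy receptor Bambi passed in none of the 6 comparisons. Bambi had only 25 to 63 counts in the myoblast and 16 to 50 in the differentiated libraries.

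Id1, Id2 and Id3 rose with stretching in myoblasts at 3 h and fell in differentiated cells at 6 h, while Id4, at 5 to 22 counts in myoblasts, passed at no time. In myoblasts at 3 h Id1 measured 59.4, 59.3, 52.3 and 56.7 CPM without and 76.6, 83.0, 72.2 and 72.2 CPM with stretching. The groups were apart (log2 fold change 0.43, SE 0.049, 1.34-fold, adjusted p = 3.80e-05). Id2 went from 51.6, 47.7, 45.7 and 44.5 CPM to 70.9, 65.0, 63.1 and 59.0 CPM, also apart (log2 fold change 0.45, SE 0.054, 1.37-fold, adjusted p = 4.53e-05), and Id3 rose as well (0.33, adjusted p = 0.000856). At 6 h the myoblast values of Id1 were 55.0, 53.6, 48.9 and 47.8 CPM and 60.2, 59.2, 66.1 and 52.1 CPM, and those of Id3 111, 107, 93.7 and 96.5 CPM and 132, 115, 145 and 102 CPM. Both overlapped between groups (Id1 log2 fold change 0.21, SE 0.067, 1.16-fold, adjusted p = 0.0333; Id3 log2 fold change 0.28, SE 0.095, 1.21-fold, adjusted p = 0.048). The Id1 call was lost without non-stretched library 9 or 10 or stretched library 7, 8 or 9 (adjusted p 0.0526 to 0.0969), and the Id3 call without non-stretched library 8, 9 or 10 or stretched library 7 or 9 (adjusted p 0.073 to 0.131). DESeq2 did not call Id3 there either (adjusted p = 0.0785). Myog, a differentiation marker, was lower with stretching in myoblasts at 3 h and 6 h (-0.82 and -0.54 on the log2 scale, 1 of 5 such markers tested passed each time), at a level of 0.394 to 3.30 CPM. Its part in the Id values was not tested.

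In differentiated cells all 4 target genes tested were lower at 6 h, as were 10.8% of all genes. Id3 was 13.8, 13.7, 14.0 and 19.6 CPM in non-stretched and 10.5, 11.3, 8.97 and 9.59 CPM in stretched libraries. The groups did not overlap, and non-stretched replicate 10 stood above the other libraries. Id3 fell past both limits (log2 fold change -0.60, SE 0.12, 0.659-fold, adjusted p = 0.00607), with a log2 difference of -0.34 within code B25 and -0.86 within B28. Its adjusted p stayed under 0.05 with any 1 library left out, but the log2 change was -0.46 without non-stretched replicate 10, -0.55 without stretched replicate 9 and -0.579 without stretched replicate 10, all under the limit. Id2 was 13.04, 13.1, 13.9 and 12.2 CPM and 10.4, 11.3, 9.92 and 11.2 CPM, without overlap (log2 fold change -0.29, SE 0.060, 0.820-fold, adjusted p = 0.00774), and Id1 fell too (-0.26, adjusted p = 0.00439). With all 24 differentiated libraries in one model neither passed (adjusted p = 0.0885 for Id2 and 0.156 for Id1), while Id3 did (0.0233). Tgfbi, a matrix protein named for its induction by TGF-β, was barely expressed, with 0.614, 0.585, 0.528 and 0.346 CPM and 0.341, 0.350, 0.320 and 0.178 CPM from 11 to 35 counts. Those groups overlapped (log2 fold change -0.80, SE 0.26, 0.575-fold, adjusted p = 0.0499), and the call was lost without non-stretched library 7, 8 or 9 or stretched library 7, 8, 9 or 10 (adjusted p 0.0666 to 0.123). Of the 6 muscle markers none passed in differentiated cells, but at 6 h their sum was 9410 to 10252 CPM in stretched and 10336 to 10892 CPM in non-stretched libraries, which do not overlap. Its part in these values was not tested, and in bulk RNA fewer cells of a kind cannot be told apart from less RNA per cell.

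Id2 rose in differentiated cells at 3 h, where it was 14.3, 15.8, 15.0 and 13.6 CPM without and 19.6, 18.5, 20.6 and 22.3 CPM with stretching. The stretched libraries were all higher (log2 fold change 0.47, SE 0.065, 1.38-fold, adjusted p = 0.000932), with a log2 difference of 0.34 within code B25 and 0.59 within B28. At 1 h the Id genes did not pass in differentiated cells, and replicate 4 moved their values. For Id2 the log2 fold change was 0.57 with it and 0.38 without it (adjusted p = 0.114), and for Id3 it was 0.50 and 0.17. Id1 measured -0.10 with it and -0.38 ± 0.051 without it (SE, adjusted p = 0.00955).

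Whether the effect of stretching differed between 6 h and 1 h was tested as an interaction within each stage. In myoblasts 10 of 40 members passed (25%, near the background of 21.1% of 15684 genes), 6 with a higher and 4 with a lower effect at 6 h. The difference between the effects was -0.66 ± 0.16 (SE, log2 scale, adjusted p = 0.0051) for Bmp4 and -0.64 ± 0.098 (adjusted p = 4.35e-05) for Fst, while it was 0.44 ± 0.10 for Pmepa1 and 0.34 ± 0.048 for Grem1. In differentiated cells 9 of 41 passed (22.0%, background 11.9% of 16266 genes), all with a lower effect at 6 h. They were Smad7 (-1.29 ± 0.19), Id3 (-1.10 ± 0.26), Id2 (-0.86 ± 0.16), Inhbb, Bmp4, Skil, Tgfb1, Smad1 and Ski. Without replicate 4 the Smad7 difference was -1.04 and the Id3 difference -0.77, and both still passed.

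Whether the effect differed between the stages was tested over the 16 libraries of each time. The stages share no title code, and by the study's methods they also differed in medium and plating density. A difference between stages cannot be told apart from a difference in these. At 1 h no member of 41 passed, and no gene of 16299 did (0% background), though 705 genes had an unadjusted p under 0.05 in edgeR (4 members with a higher and 2 with a lower effect in differentiated cells) and DESeq2 gave 1 member. At 3 h 5 passed (12.2%, background 1.79% of 16252 genes). In differentiated cells the effect was lower on Smad6 (-0.66 ± 0.12), Id3 (-0.53 ± 0.11) and Id1 (-0.44 ± 0.071) and higher on Tgif2 and Tgfb2. At 6 h 6 passed (14.6%, background 5.18% of 16254 genes). The effect was lower in differentiated cells on Id3 (-0.89 ± 0.17), Pmepa1 (-0.53 ± 0.064), Id1 (-0.48 ± 0.089), Smad7 and Tgfb1, and higher on Smad2.

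**Figure D5:**
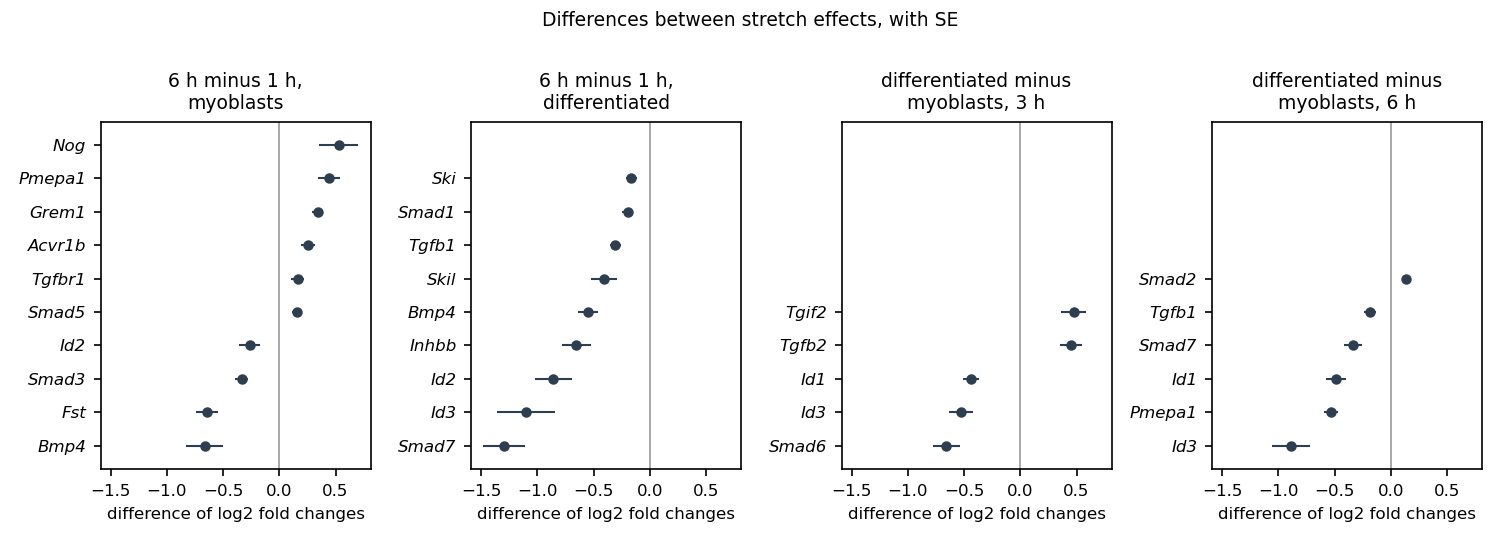
Difference of log2 fold changes (x axis, points, with SE bars) for each member that passed an interaction test, in panels for 6 h against 1 h in each stage and for differentiated cells against myoblasts at 3 h and 6 h. In differentiated cells all 9 differences between 6 h and 1 h are below 0.

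The 80 other genes of a wider list of the pathway (further ligands, co-receptors, extracellular regulators, Smad partners and targets) were counted by the same test. In myoblasts 7 rose and 2 fell of 58 tested at 1 h, 14 rose and 7 fell of 57 at 3 h, and 8 rose and 12 fell of 58 at 6 h. The share that passed was 15.5%, 36.8% and 34.5% at the 3 times, beside 5.92%, 31.9% and 27.2% of all genes, so the shares at 3 h and 6 h were near the background. In differentiated cells none of 63 passed at 1 h by edgeR (5 higher and 2 lower at an unadjusted p under 0.05), 12 rose and 1 fell of 62 at 3 h, and 3 rose and 16 fell of 63 at 6 h. These are 0%, 21.0% and 30.2% of the list, beside 0.663%, 22.2% and 22.3% of all genes, so at 3 h the share was no higher than the background. Past both limits were Ctgf, a matricellular target gene, in myoblasts at 1 h (0.65, adjusted p = 0.000378) and differentiated cells at 3 h (1.01, adjusted p = 0.00889), and Chrdl1, a BMP antagonist, in myoblasts at 3 h (-0.76, adjusted p = 0.0451) and differentiated cells at 6 h (-0.75, adjusted p = 0.0146). The others were the ligand Amh in differentiated cells at 3 h (0.75, adjusted p = 0.0377) and Atoh8, a transcription factor, at 6 h (-0.58, adjusted p = 0.00327). At 1 h in differentiated cells Ctgf measured 2.10, adjusted p = 0.102, and so did not pass.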

How the data were processed

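Libraries were prepared, per the methods of the study, from RNA of washed cells with a stranded mRNA kit, while the labels name the molecule as nuclear RNA. Reads were aligned with STAR and quantified with Salmon on mm10 by the authors (submitters' processing notes and methods), and the deposited values are whole-number counts per gene symbol, 1 table a stage, without normalization. All 48 sample columns were used. The depth of 48447318 to 77080730 counts per library makes counting error small except for members with few counts. Among those members are Mstn, Bmp2, Id4, Tgfbi, Bambi and Acvr2b.

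Genes with low counts were removed (filterByExpr), libraries were scaled (TMM), and groups were compared in edgeR 4.0.16 under R 4.3.3 (glmQLFTest, a quasi-likelihood test), with Benjamini-Hochberg adjustment over all genes. SE values are from the fit, on the log2 scale. Interactions used all 24 libraries of a stage or the 16 of a time. The study used DESeq2, here an alternative (version 1.42.0), and limits of adjusted p under 0.05 and a log2 fold change of 0.58. Scripts were tested on simulated data. The members and lists were chosen with earlier results of these data known. In each comparison, members past both limits and up to 6 further members that passed, with the largest changes, are given in full, and each gene list is described by counts. Replicates differed beyond counting noise. Same-numbered stretched and non-stretched libraries deviated together in some pairs only (correlation over 0.1 in 11 of 23 pairs, range -0.219 to 0.439). Numbers were not used as pairs. The muscle marker Mymk was not analysed here.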

Additional observations from a re-analysis of the deposited data

Results flagged for a closer look

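2 of 70 group ranges had a library far from the other 3 by Dixon's criterion, and chance gives such a library in about 1 of 20 groups. Smad7 was 51.8 CPM in stretched differentiated replicate 4 at 1 h, the highest of its group, and the log2 fold change without it was 0.95. Id3 was 19.6 CPM in non-stretched differentiated replicate 10 at 6 h, the highest of its group.

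The effect of stretching in myoblasts differed between 6 h and 1 h for 10 of 40 members. That is 25%, near the 21.1% of all 15684 genes. Values are the effect at 6 h minus that at 1 h on the log2 scale with its SE (edgeR, adjusted over all genes). It was lower for Bmp4 (-0.66 ± 0.16), Fst (-0.64 ± 0.098), Smad3 (-0.34 ± 0.057) and Id2 (-0.26 ± 0.093). It was higher for Nog (0.53 ± 0.17), Pmepa1 (0.44 ± 0.10), Grem1 (0.34 ± 0.048), Acvr1b (0.26 ± 0.065), Tgfbr1 (0.16 ± 0.057) and Smad5 (0.16 ± 0.044). Tgfbr1 (adjusted p = 0.0433) was lost without non-stretched 1 h library 9 or 10 or stretched 1 h library 7 or 8 or non-stretched 6 h library 7 or 8 or stretched 6 h library 7, 9 or 10 (adjusted p 0.055 to 0.0912). Nog (adjusted p = 0.0296) was lost without non-stretched 1 h library 7 or 10 or stretched 1 h library 8 or 9 or non-stretched 6 h library 8 or 9 or stretched 6 h library 9 or 10 (adjusted p 0.0521 to 0.0723). Id2 (adjusted p = 0.0448) was lost without non-stretched 1 h library 8, 9 or 10 or stretched 1 h library 7, 8 or 10 or non-stretched 3 h library 8, 9 or 10 or stretched 3 h library 8 or 9 or non-stretched 6 h library 7, 8 or 9 or stretched 6 h library 7, 9 or 10 (adjusted p 0.0508 to 0.108). The other 7 passed with any 1 library left out.

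In differentiated cells the same difference passed for 9 of 41 members (22.0%, against 11.9% of all 16266 genes), and all 9 were below 0. They were Smad7 (-1.29 ± 0.19), Id3 (-1.10 ± 0.26), Id2 (-0.86 ± 0.16), Inhbb (-0.65 ± 0.13), Bmp4 (-0.55 ± 0.087), Skil (-0.41 ± 0.12), Tgfb1 (-0.31 ± 0.052), Smad1 (-0.20 ± 0.046) and Ski (-0.16 ± 0.048). Ski (adjusted p = 0.028) was lost without non-stretched 1 h library 7 or 8 or non-stretched 6 h library 8 or 10 or stretched 6 h library 7 (adjusted p 0.052 to 0.0675). Skil (adjusted p = 0.0252) was lost without non-stretched 1 h library 10 or non-stretched 6 h library 8 (adjusted p 0.0524). The other 7 passed with any 1 library left out, replicate 4 included.

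Between the stages, the effect in differentiated cells minus that in myoblasts at 3 h was -0.66 ± 0.12 for Smad6, -0.53 ± 0.11 for Id3, -0.44 ± 0.071 for Id1, 0.45 ± 0.097 for Tgfb2 and 0.48 ± 0.11 for Tgif2. Tgfb2 (adjusted p = 0.0206) was lost without non-stretched myoblast library 9 or 10 (adjusted p 0.0543 to 0.0553). Tgif2 (adjusted p = 0.0327) was lost without non-stretched myoblast library 7, 8 or 10 or stretched myoblast library 7, 9 or 10 or non-stretched differentiated library 7 or 8 or stretched differentiated library 7 or 10 (adjusted p 0.0538 to 0.0868). At 6 h the difference was -0.89 ± 0.17 for Id3, -0.53 ± 0.064 for Pmepa1, -0.48 ± 0.089 for Id1, -0.33 ± 0.080 for Smad7, -0.18 ± 0.051 for Tgfb1 and 0.13 ± 0.036 for Smad2. Tgfb1 (adjusted p = 0.0454) was lost without non-stretched myoblast library 7, 8, 9 or 10 or stretched myoblast library 7, 8, 9 or 10 or non-stretched differentiated library 8, 9 or 10 or stretched differentiated library 7, 8, 9 or 10 (adjusted p 0.0599 to 0.15). Smad2 (adjusted p = 0.0404) was lost without non-stretched myoblast library 9 or stretched myoblast library 7 or 8 or non-stretched differentiated library 7 or 8 or stretched differentiated library 7, 9 or 10 (adjusted p 0.0512 to 0.0773), and Smad7 (adjusted p = 0.024) without non-stretched myoblast library 9 or 10 or stretched myoblast library 7 or 9 or non-stretched differentiated library 8 (adjusted p 0.0511 to 0.0585).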

How the results depend on the processing

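Counts of members that changed by more than 1.5 times under an alternative were these, and the cause was not tested. In myoblasts at 1 h, 5 higher members became 2 with no low-count filter and 2 with the replicate block (Acvr1, Smad1 and Smad3 are lost in both). In differentiated cells at 1 h, 2 higher members became 4 with DESeq2, 4 with the title code as covariate, 1 with the replicate block and 6 with all 24 libraries in one model, 0 lower became 1 under the last 3 of these, and 1 past both limits became 2 with all 24 libraries. At 6 h there, 2 past both limits became 1 with DESeq2, RLE factors or no filter (Tgfbi is the one lost), and 15 lower became 9 with all 24 libraries. The interaction counts went from 9 to 14 (time, differentiated) and from 5 to 9 (stage, 3 h) with the title code, and from 0 to 1 with DESeq2 and 2 with the title code (stage, 1 h).

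Leaving out 1 library at a time gave these ranges. In myoblasts, 2 to 5 were higher at 1 h, 17 to 21 higher and 2 to 3 lower at 3 h, and 7 to 10 higher and 3 to 6 lower at 6 h, with 0 to 1 past both limits at 3 h and 6 h. In differentiated cells, 0 to 4 were higher, 0 to 1 lower and 0 to 2 past both limits at 1 h, 13 to 15 were higher at 3 h with 0 to 1 past both limits, and 10 to 15 were lower at 6 h with 0 to 1 past both limits. The interactions gave 8 to 12 (time, myoblasts), 7 to 15 (time, differentiated), 0 to 1 (stage, 1 h), 3 to 5 (stage, 3 h) and 3 to 8 (stage, 6 h).

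Over 111 results for single genes, the alternatives kept 684 calls and lost 32, leaving out 1 library kept 1100 and lost 180, and 0 changed direction. Same-numbered libraries deviated together in some pairs only (11 of 23 correlations over 0.1, and 9 of 23 libraries matched their own number best). The replicate block is given here only. It also lost Smad1 in myoblasts at 6 h and, in differentiated cells, Smad1 at 1 h and Tgfb2, Acvr1b and Ltbp1 at 6 h. In differentiated cells at 1 h, replicate 4 has no counterpart and drops out of the block and title-code fits. Counting error limits Tgfbi, Bmp2, Id4, Mstn, Bambi and Acvr2b.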
